A study of Mus musculus with 14 samples.

Results

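Epithelial junction and identity genes were followed across 4 stably modified lines of MIN6, an insulin-secreting mouse pancreatic beta-cell line. The 39 genes were chosen by name, with earlier results of these arrays known, and cover claudins, junction and desmosome proteins, keratins, and epithelial splicing, transcription and protease genes. All 39 were measured, by 41 of the 23232 probes, with Ctnnd1 and Grhl2 on 2 probes each. Sir2OE1 (3 arrays) and Sir2OE2 (4 arrays) were infected with a pBabe retrovirus carrying mouse Sirt1 and were set against pooled RNA of Neo1 and Neo2, lines infected with the empty virus. Sir2KD1 (3 arrays) and Sir2KD2 (4 arrays) were co-transfected with a neomycin-resistance plasmid and vectors expressing small interfering RNAs against Sirt1, and were set against mU6pro, a line made with the empty vector. All came from MIN6 cells at passage 24 and were kept in 5 mM glucose before RNA collection, after G418 selection at 280 (overexpressing) or 400 (knockdown) micrograms per ml. Both lines of a kind thus share their control RNA, the controls carry an empty vector and not untouched MIN6, and the knockdown kind rests on 1 control line. The labels do not say whether slides of 1 line held RNA of separate cultures, so errors and p-values cover the spread from array to array, part or all of it possibly technical.

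Epithelial cells hold to each other through 3 kinds of contact. Tight junctions, built from claudins and occludin on zonula occludens scaffolds, seal the space between cells, adherens junctions couple E-cadherin through catenins to actin, and desmosomes couple desmosomal cadherins through plakoglobin, plakophilins and desmoplakin to keratin filaments. Beta cells are endocrine epithelial cells, and their contacts through E-cadherin are known to bear on insulin secretion. The splicing factors Esrp1 and Esrp2 and the transcription factor Grhl2 maintain epithelial forms of many transcripts, and Zeb and Snail family repressors bind E-box sequences in promoters of epithelial genes such as Cdh1.

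Values are log2 ratios of a line and its control RNA, turned in sign on arrays that held the line in channel 1. Their overall sign is not settled, so plus and minus name sides of the ratio and not more or less RNA in the line. The turn itself is an assumption, as is that both kinds have the same channel on top. Values of single arrays still carry whatever the centring of each probe took away, which the dye term removes from the fitted values. The centring also makes the mean turned values of both channel positions equal over 6 arrays of a kind. Evenness of turned values across the exchange of channels is therefore no check. The probe of Sirt1, an NAD-dependent protein deacetylase, was not called in any line, with fitted values from -0.33 ± 0.10 (SE, n = 4 arrays) in Sir2OE2 to 0.12 ± 0.10 in Sir2KD2 (SE, n = 4), and therefore gave no check of the labels. A probe was called where limma's adjusted p over 23230 probes was below 0.05. The share of all probes at an unadjusted p below 0.05 was not counted, so counts of such probes have no comparison. The members were chosen with the contrasts against control known, so their calls there, and in differences between lines that follow from them, are a description and carry no p-value. Ratios hold no level, so the beta-cell identity of the lines could not be checked by marker level, and fewer cells of a type cannot be told apart from less RNA per cell.

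A group of epithelial genes had minus values in Sir2OE1 as well as in Sir2OE2. Esrp1, Spint1, Epcam, Cldn7, Ap1m2, Cldn3 and Krt19 were called minus in Sir2OE1 and in Sir2OE2, from -3.45 for Esrp1 to -0.45 for Cldn3. In Sir2OE1 these 7 were the only members called, 17.1% of the 41 probes, against 0.594% of all probes called minus. In Sir2OE2, Cdh1 and Esrp2 joined them to make 9 probes or 22%, against 1.38% of all probes, and 1 of the 2 Grhl2 probes was called plus, where 1.43% of all probes were. Over all probes 0.357% were called minus in both lines. Since the choice of members used these contrasts, the excess over all probes is given beside the counts and not as a result.

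In the knockdown lines the called members differed by line. In Sir2KD1, Cdh1, Epcam and Ocln were called minus (1.98% of all probes were), and Cldn3 and Krt7 plus (1.6% of all probes). In Sir2KD2, Ocln was called minus (0.74% of all probes), and Cldn7 and Krt7 plus (0.603% of all probes). Ocln was thus the 1 member called minus in both knockdown lines, where 0.413% of all probes were, and Krt7 the 1 called plus in both, where 0.245% were. Altogether 12 of the 39 genes were called in at least 1 line and 27 were not. The share of all genes called in at least 1 line was not counted, so this count has no comparison. With the ratios left unturned and the centring undone, of the 29 called member values, line differences included, 3 kept side and call (Cldn3 and Ap1m2 in Sir2OE1 and Cldn3 in Sir2OE2), 13 lost the call and 13 changed side. That fit kept the dye term of each kind, which takes up what changes sign with the channel in both lines. It therefore cannot check these calls.

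**Figure D1:**
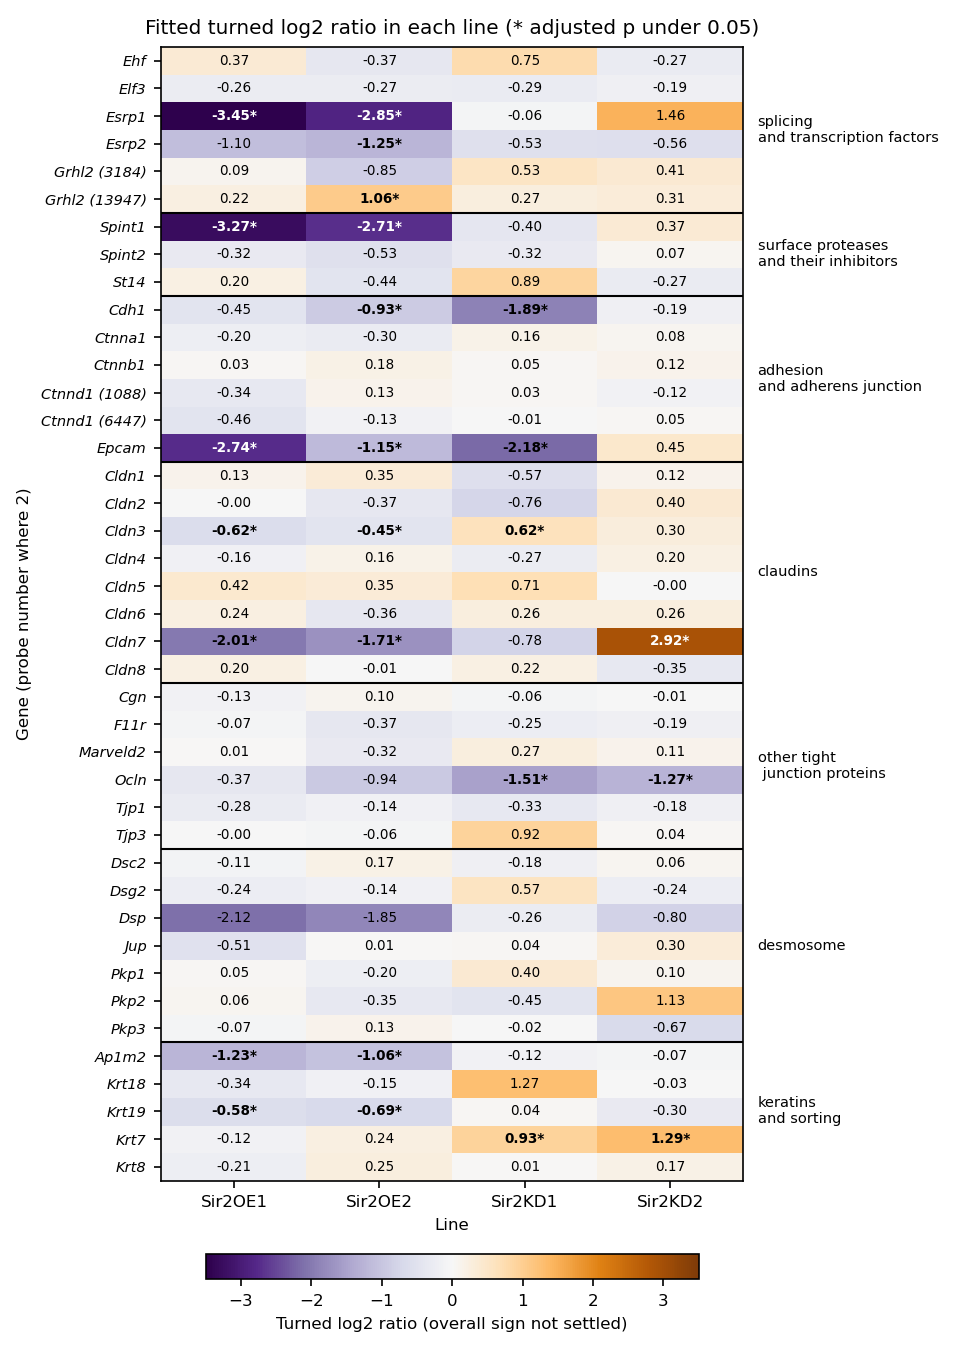
Fitted turned log2 ratios of all 41 member probes (rows, grouped by role) in the 4 lines (columns), with an asterisk where the adjusted p was below 0.05. The 7 genes called minus in both overexpressing lines, from Esrp1 at -3.45 to Cldn3 at -0.45, carry asterisks in both columns on the left, while most other rows stay within 1 log2 unit of 0.

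The median member probe lay at -0.21 in Sir2OE1 and -0.30 in Sir2OE2, against -0.00 over all probes in each. Minus values were held by 29 of 41 member probes (70.7%) in each overexpressing line, where 50.3% and 50.6% of all probes had them. In the knockdown lines the medians were -0.01 in Sir2KD1 and 0.06 in Sir2KD2, with 21 and 18 member probes on the minus side. Of the 29 member probes called in no line, 26 stayed within 1 log2 unit of 0 in all 4 lines, the exceptions being Dsp, Krt18 and Pkp2. That limit is wide. The 5th and 95th percentiles of all probes were -0.54 and 0.52 in Sir2OE1, and -0.68 and 0.80 in Sir2KD1, where they lay furthest apart among the lines. The share of all probes within 1 log2 unit in all 4 lines was not counted.

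The deposited values could be returned to whole-number percent ratios of the channels, which show the arrays before any turning of signs. For each probe the percents of a kind may share an unknown factor, and the channel on top is not known. Esrp1 read 10% and 9% on the Sir2OE1 arrays with the line in channel 2, and 1235% on the one with the line in channel 1. In Sir2OE2 it read 10% and 15% with the line in channel 2, and 537% and 764% with the line in channel 1. The ratio thus crossed 100% whenever the channels were exchanged. In the same array order Spint1 read 7%, 8% and 585% in Sir2OE1, and 13%, 19%, 581% and 778% in Sir2OE2. Epcam read 17%, 17% and 804% in Sir2OE1, and 45%, 45%, 226% and 217% in Sir2OE2. A crossing of 100% in either direction, with no overlap between channel positions, was seen in the overexpression arrays for 10 of 41 member probes, against 4% of all probes. These were Epcam, Cldn5, Cldn7, Dsp, Ap1m2, Krt19, Ocln, Esrp1, Esrp2 and Spint1. Of them only Cldn5 was higher with the line in channel 2 (112% to 148%, against 56% to 93%). In the knockdown arrays it was seen for 5 of 41, Krt7, Ocln, Tjp1, Elf3 and Esrp2, against 6.28% of all probes. There only Krt7 was higher with the line in channel 2 (200% to 260%, against 41% to 58%). The members were chosen with earlier results of these arrays known, and the unknown factor can move a probe across 100%. These counts are therefore a description and not a result.

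**Figure D2:**
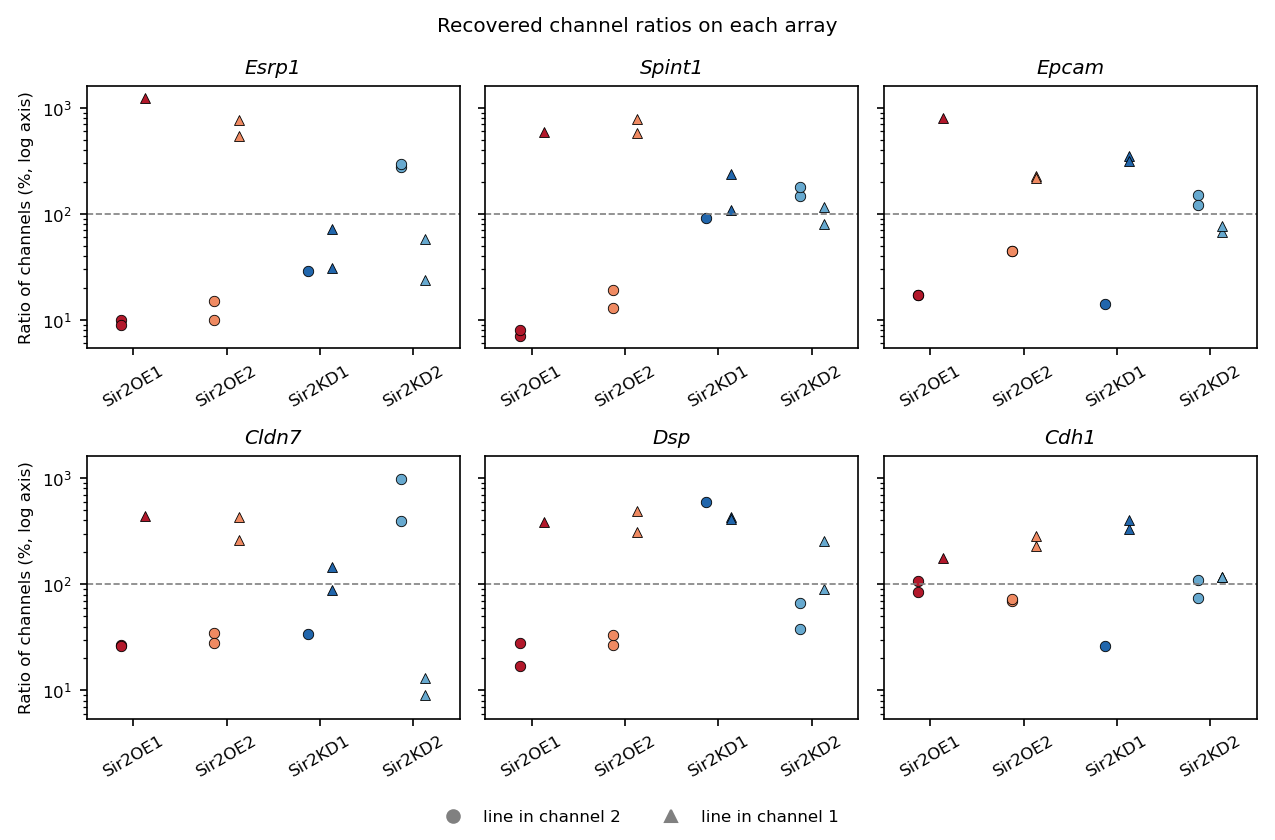
Recovered channel ratios in percent (log axis) on every array for 6 genes, with circles for arrays with the line in channel 2 and triangles for arrays with the line in channel 1. Esrp1, Spint1, Epcam, Cldn7 and Dsp lie below 100% as circles and above it as triangles in both overexpressing lines, while Dsp in Sir2KD1 lies above 100% on all 3 arrays (592%, 428% and 413%).

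Among the splicing and transcription factors, Esrp1, an RNA-binding protein that promotes epithelial splice forms, had the lowest fitted value of any member. Its turned log2 ratios were -3.26, -3.41 and -3.69 on the Sir2OE1 arrays and -3.26, -2.67, -2.49 and -3.00 on the Sir2OE2 arrays. On the Sir2KD1 arrays it read -1.23, -0.08 and 1.14, and on the Sir2KD2 arrays 2.01, 2.10, 1.51 and 0.23. All 7 overexpression arrays lay below all 7 knockdown arrays, and Sir2KD1 scattered around 0. The fitted values were -3.45 ± 0.44 in Sir2OE1 (SE, n = 3), -2.85 ± 0.37 in Sir2OE2 (SE, n = 4), -0.06 ± 0.44 in Sir2KD1 (SE, n = 3) and 1.46 ± 0.37 in Sir2KD2 (SE, n = 4), of which only those of the overexpressing lines were called. Leaving out Sir2OE1 slide 3 ended the Sir2OE1 call at -3.22.

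Esrp2, the paralog of Esrp1, read -1.15, -1.07, -1.11 and -1.67 in Sir2OE2, where it was called at -1.25 ± 0.20 (SE, n = 4). In Sir2OE1 it read -1.56, -0.67 and -1.004, fitted at -1.10 ± 0.23 (SE, n = 3) and not called. It lay on the minus side on all 14 arrays, at -0.53 in Sir2KD1 and -0.56 in Sir2KD2. The 2 probes of Grhl2, a transcription factor of epithelial junction genes, disagreed. Probe 13947 read 0.79, 1.14, 1.04 and 1.27 in Sir2OE2 and was called at 1.06 ± 0.14 (SE, n = 4), while probe 3184 was fitted at -0.85 there and not called, so no side is given for the gene. Elf3 and Ehf, ETS factors of epithelia, stayed between -0.37 and 0.75 in all 4 lines and were not called.

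The matriptase system holds the membrane serine protease St14 and its Kunitz-type inhibitors Spint1 and Spint2. Spint1 read -3.65, -3.46 and -2.74 on the Sir2OE1 arrays and -2.76, -2.21, -2.73 and -3.15 on the Sir2OE2 arrays. The fitted values were -3.27 ± 0.26 in Sir2OE1 (SE, n = 3) and -2.71 ± 0.22 in Sir2OE2 (SE, n = 4), both called. On the knockdown arrays it stayed between -0.84 and 0.72, and neither line was called. Spint2 was fitted at -0.32 in Sir2OE1 and -0.53 in Sir2OE2, and St14 at 0.20 and -0.44, none of them called. Of the 3 genes, only Spint1 was thus called. With the ratios left unturned and the centring undone, St14 was called in all 4 lines, from -3.65 in Sir2OE1 to -3.17 in Sir2KD2. Its recovered percents ran from 4% to 22% over all arrays, and the unknown factor enters these values. The line values of that fit hold mainly what does not change with the channel.

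Of the adhesion genes, Epcam, a homophilic adhesion molecule of epithelial cells, was called minus in 3 lines. It read -2.63, -2.63 and -2.93 in Sir2OE1, and -1.23, -1.23, -1.10 and -1.04 in Sir2OE2. In Sir2KD1 it read -2.62, -2.04 and -1.87, while in Sir2KD2 all 4 arrays were on the plus side, at 0.80, 0.48, 0.36 and 0.18. All arrays of Sir2OE1 and Sir2KD1 lay below all arrays of Sir2OE2 and Sir2KD2. The fitted values were -2.74 ± 0.17 in Sir2OE1 (SE, n = 3), -1.15 ± 0.14 in Sir2OE2 (SE, n = 4), -2.18 ± 0.17 in Sir2KD1 (SE, n = 3) and 0.45 ± 0.14 in Sir2KD2 (SE, n = 4).

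Cdh1 encodes E-cadherin, the cadherin of epithelial adherens junctions. It read -1.98, -1.70 and -1.96 in Sir2KD1, and -0.47, 0.10, -0.19 and -0.19 in Sir2KD2, with no overlap between those lines. In the overexpressing lines it read -0.62, -0.29 and -0.42 in Sir2OE1, and -0.92, -0.84, -1.12 and -0.83 in Sir2OE2. The calls were for Sir2OE2 at -0.93 ± 0.12 (SE, n = 4) and Sir2KD1 at -1.89 ± 0.14 (SE, n = 3). The catenins, which link cadherins to actin, were not called with it: Ctnna1, Ctnnb1 and both probes of Ctnnd1 stayed between -0.46 and 0.18 in all 4 lines with no call.

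The claudins, the strand-forming proteins of tight junctions, were mostly not called, 6 of the 8 in no line. Cldn7 read -1.95, -2.004 and -2.07 in Sir2OE1, and -1.58, -1.90, -2.04 and -1.32 in Sir2OE2. It read -1.19, -0.18 and -0.89 in Sir2KD1, but 2.33, 3.65, 3.11 and 2.58 in Sir2KD2, where its fitted value was the highest of any member. Its fitted values were -2.01 ± 0.27 in Sir2OE1 (SE, n = 3), -1.71 ± 0.22 in Sir2OE2 (SE, n = 4), -0.78 ± 0.27 in Sir2KD1 (SE, n = 3, not called) and 2.92 ± 0.22 in Sir2KD2 (SE, n = 4). The Sir2OE1 call ended without Sir2OE1 slide 3, at an almost equal value of -1.95.

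Cldn3 had small values, at -0.79, -0.51 and -0.55 in Sir2OE1 and -0.42, -0.36, -0.41 and -0.60 in Sir2OE2. Its recovered percents on the overexpression arrays were 37% to 50% with the line in channel 2 and 85% to 97% with it in channel 1. On the knockdown arrays they were 150% to 196% and 80% to 105%, so Cldn3 was not among the probes that crossed 100%. Turned values of Cldn3 were 0.64, 0.55 and 0.66 in Sir2KD1, and 0.25, 0.35, 0.26 and 0.32 in Sir2KD2, so that all overexpression arrays lay below all knockdown arrays. Calls were made at -0.62 ± 0.11 in Sir2OE1 (SE, n = 3), -0.45 ± 0.09 in Sir2OE2 (SE, n = 4) and 0.62 ± 0.11 in Sir2KD1 (SE, n = 3). The call in Sir2OE1 ended on leaving out any 1 of its 3 slides or slide 1, 2 or 3 of Sir2OE2, that in Sir2OE2 on leaving out any 1 slide of Sir2OE2 or Sir2KD2, and that in Sir2KD1 on leaving out its slide 1 or 3. All 3 calls were lost with each kind fitted on its own arrays. Cldn4, its neighbour on chromosome 5, was fitted between -0.27 and 0.20. Cldn1, Cldn2, Cldn5, Cldn6 and Cldn8 ran from -0.76 for Cldn2 to 0.71 for Cldn5, both in Sir2KD1, with no call.

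Occludin, a membrane protein of tight junction strands, lay on the minus side on all 14 arrays. Ocln read -1.70, -1.68 and -1.16 in Sir2KD1, and -0.82, -1.46, -1.85 and -0.97 in Sir2KD2, with calls at -1.51 ± 0.26 (SE, n = 3) and -1.27 ± 0.22 (SE, n = 4). Its values in the overexpressing lines, -0.37 ± 0.26 in Sir2OE1 (SE, n = 3) and -0.94 ± 0.22 in Sir2OE2 (SE, n = 4), were not called. The Sir2KD1 call ended without its slide 1 or 2, and the Sir2KD2 call without its slide 2, 3 or 4, and both were lost with the knockdown arrays fitted alone. Marveld2, the tricellulin gene beside Ocln on chromosome 13, stayed between -0.32 and 0.27. The scaffold genes Tjp1, Tjp3 and Cgn and the junctional adhesion molecule F11r ran from -0.37 to 0.92 with no call, the highest being Tjp3 in Sir2KD1, where its 3 arrays read 1.81, 0.05 and 0.79.

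With 2, 1, 1 and 2 of the 7 desmosome genes at an unadjusted p below 0.05 in Sir2OE1, Sir2OE2, Sir2KD1 and Sir2KD2, a level at which all probes were not counted, limma called 0 of them in any line. Desmoplakin, which anchors keratin filaments at the desmosome, had large minus values in the overexpressing lines all the same. Dsp read -2.53, -1.81 and -1.98 in Sir2OE1, and -1.86, -1.57, -2.32 and -1.66 in Sir2OE2. In Sir2KD1 it read 1.93, -1.46 and -1.41, and in Sir2KD2 -2.03, -1.24, -0.71 and 0.77, so single knockdown arrays stood on the plus side. The fit shares 1 spread over all arrays, which gave -2.12 ± 0.64 in Sir2OE1 (SE, n = 3) and -1.85 ± 0.54 in Sir2OE2 (SE, n = 4), neither called. With the overexpression arrays fitted alone the standard errors were 0.21 in Sir2OE1 and 0.18 in Sir2OE2 and both lines were called. Leaving out Sir2KD1 slide 1, the 1 array of that line with the line in channel 2, also made both calls and gave Dsp in Sir2KD1 a called value of -2.27 in place of -0.26, which was not called.

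The plaque protein plakoglobin and the plakophilins gave no common side. Jup read -0.55, -0.50 and -0.48 in Sir2OE1, fitted at -0.51 ± 0.12 (SE, n = 3), and was at 0.01 in Sir2OE2, with neither called. Pkp2 read 0.53, 2.19, 1.06 and 0.74 in Sir2KD2, fitted at 1.13 ± 0.26 (SE, n = 4) and not called. The cadherins Dsc2 and Dsg2 and the plakophilins Pkp1 and Pkp3 ran from -0.67 to 0.57.

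Ap1m2 encodes the mu subunit of AP-1B, the adaptor that sorts proteins to the basolateral membrane of epithelial cells. It read -1.59, -1.27 and -0.85 in Sir2OE1 and -0.96, -0.78, -1.12 and -1.36 in Sir2OE2, called at -1.23 ± 0.19 (SE, n = 3) and -1.06 ± 0.16 (SE, n = 4). On the knockdown arrays it stayed between -0.30 and 0.29. The Sir2OE1 call ended without its slide 1, at -1.06, or its slide 2, and with the overexpression arrays fitted alone.

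The keratins, filament proteins of epithelial cells, split by gene. Krt19 read -0.46, -0.70 and -0.60 in Sir2OE1 and -0.70, -0.75, -0.73 and -0.58 in Sir2OE2, called at -0.58 ± 0.11 (SE, n = 3) and -0.69 ± 0.09 (SE, n = 4). The Sir2OE1 call was lost on leaving out any 1 of 12 arrays, all but Sir2OE2 slide 4 and Sir2KD1 slide 3, and with the overexpression arrays fitted alone. Krt7 lay on the other side in the knockdown lines, at 0.93, 1.01 and 0.85 in Sir2KD1 and 1.22, 1.31, 1.36 and 1.25 in Sir2KD2. It was called in both, at 0.93 ± 0.14 (SE, n = 3) and 1.29 ± 0.12 (SE, n = 4) in that order, and leaving out Sir2KD1 slide 1 ended the Sir2KD1 call. Krt8 and Krt18, the partners of simple epithelia and neighbours on chromosome 15, were not called, with Krt18 at 0.58, 1.58 and 1.69 in Sir2KD1 and Krt8 between -0.21 and 0.25.

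**Figure D3:**
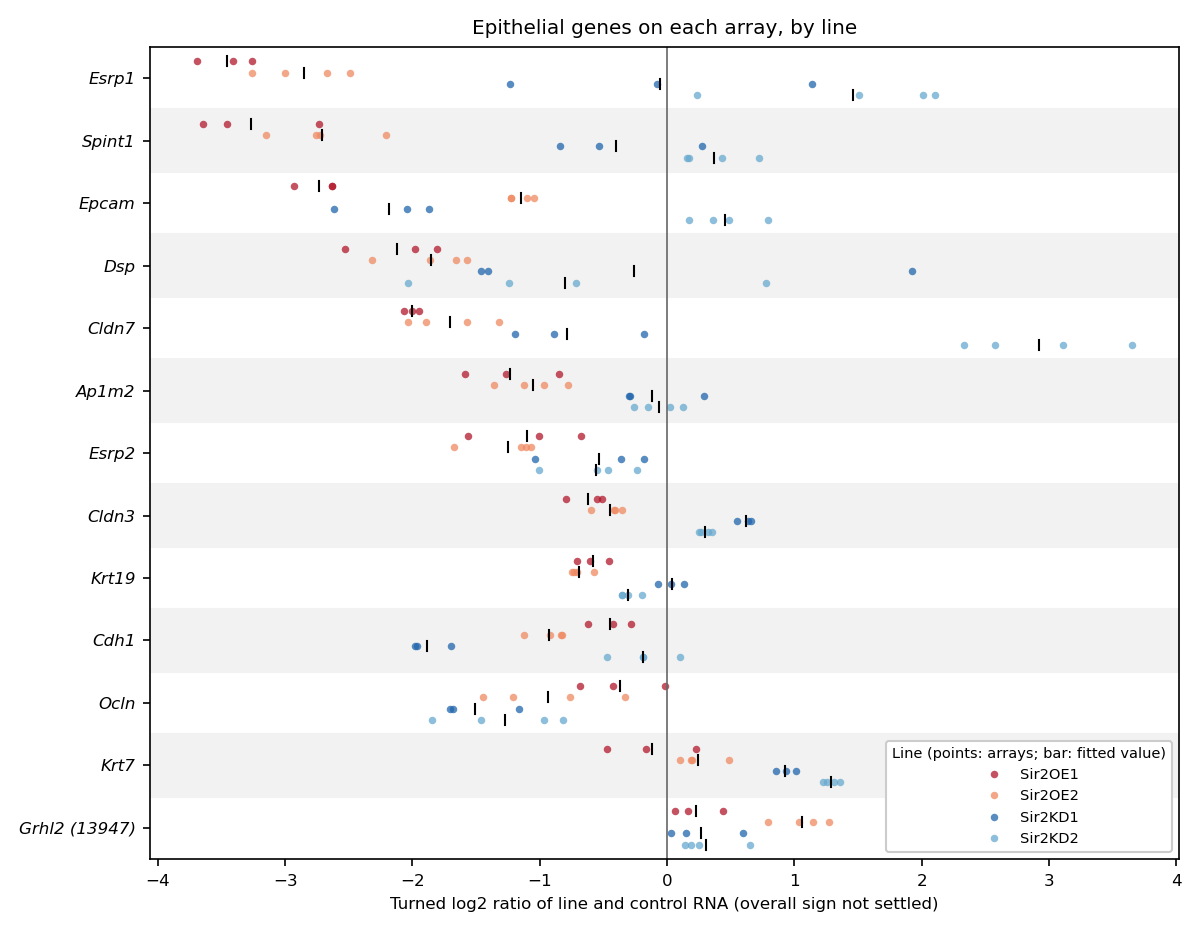
Turned log2 ratios on each array (points) with the fitted value (bar) for the 12 genes called in at least 1 line and for Dsp, coloured by line. Esrp1, Spint1, Cldn7, Ap1m2, Cldn3, Krt19 and Krt7 separate the overexpressing lines from both knockdown lines. The gap is narrow for Cldn7 from Sir2KD1 (-1.32 against -1.19) and for Krt19 from Sir2KD2 (-0.46 against -0.35). Epcam joins Sir2OE1 with Sir2KD1, and Krt7 lies near 1 in both knockdown lines.

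Promoter sequences of RefSeq (GRCm38.p6) were found for 25 of the 39 genes, as 31 windows from 250 bases before to 50 bases after a start. The E-box CACCTG, on either strand, was searched because Zeb and Snail repressors are known to bind it, and the 250 bases before the start are shown for 4 genes called minus in both overexpressing lines, 3 with the motif and 1 without. Capitals mark CACCTG or its reverse complement CAGGTG, and each sequence runs 5′ to 3′ on the gene's strand. Ap1m2 lies at chr9:21312334-21312583 on the minus strand, Cldn7 (1 of its 2 starts) at chr11:69965171-69965420, Epcam at chr17:87635729-87635978 and Spint1 at chr2:119237110-119237359, the last 3 on the plus strand.
Ap1m2: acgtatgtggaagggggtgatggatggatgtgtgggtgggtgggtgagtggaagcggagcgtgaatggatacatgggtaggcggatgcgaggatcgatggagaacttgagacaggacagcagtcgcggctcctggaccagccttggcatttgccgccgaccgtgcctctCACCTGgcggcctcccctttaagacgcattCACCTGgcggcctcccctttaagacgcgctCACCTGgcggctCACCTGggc
Cldn7: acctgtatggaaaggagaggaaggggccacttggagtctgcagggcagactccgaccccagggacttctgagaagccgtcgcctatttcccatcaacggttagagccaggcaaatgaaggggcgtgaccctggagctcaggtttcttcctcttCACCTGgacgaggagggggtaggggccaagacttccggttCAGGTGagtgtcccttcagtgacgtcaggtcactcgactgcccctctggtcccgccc
Epcam: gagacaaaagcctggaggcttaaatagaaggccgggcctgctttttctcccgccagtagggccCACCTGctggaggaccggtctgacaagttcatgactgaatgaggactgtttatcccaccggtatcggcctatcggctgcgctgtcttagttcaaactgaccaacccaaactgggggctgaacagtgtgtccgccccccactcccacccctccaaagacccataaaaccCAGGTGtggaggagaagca
Spint1: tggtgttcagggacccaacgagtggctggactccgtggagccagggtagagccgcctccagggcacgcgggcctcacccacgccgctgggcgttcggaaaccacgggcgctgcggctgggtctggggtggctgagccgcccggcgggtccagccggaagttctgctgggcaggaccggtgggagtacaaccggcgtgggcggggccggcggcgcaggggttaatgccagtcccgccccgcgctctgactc

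The Ap1m2 window held 4 such E-boxes, those of Epcam and of the Cldn7 start shown 2 each, and those of Spint1 and of the other Cldn7 start none. Over the members 19 of 31 windows (61.3%) held CACCTG, against 20.2% of 32851 windows of all genes and 21.7% of 6240 windows of protein-coding genes with a GC content from 57.2% to 67%, the members' interquartile range. It was in 4 of 6 windows (66.7%) of members called minus in both overexpressing lines and in 15 of 25 windows (60%) of the others. Those 6 windows are of 5 genes, with 2 for Cldn7, and no window was found for Esrp1 or Krt19. Cdh1 had no window either. The motif AACNNGTT, which is its own reverse complement, was in 2 of 31 member windows (6.45%), against 4.2% of all windows. These are matches of letters and show no binding, and the GC-matched share was added after the first shares were seen.

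Lines of a kind were next set against each other, a contrast in which the shared control RNA cancels. Since it subtracts values that were known when the genes were listed, it too is given as a description. In Sir2OE1 minus Sir2OE2, Epcam was the 1 member called, at -1.59 ± 0.22 (SE), while 0.211% of all probes were called minus. All 3 Sir2OE1 arrays lay below all 4 Sir2OE2 arrays. Leaving out any 1 of the 7 overexpression arrays ended the call, with differences from -1.63 to -1.40. The other genes called minus in both lines gave no call: the difference was -0.60 for Esrp1 (95% interval -1.87 to 0.67), -0.56 for Spint1 (-1.31 to 0.19), -0.30 for Cldn7 (-1.07 to 0.47), -0.18 for Ap1m2 (-0.71 to 0.36), -0.18 for Cldn3 (-0.50 to 0.15) and 0.11 for Krt19 (-0.21 to 0.43). These intervals are not adjusted for the number of probes.

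In Sir2KD1 minus Sir2KD2, Epcam, Cdh1 and Cldn7 were called minus, where 0.422% of all probes were. The difference was -3.70 ± 0.35 (SE) for Cldn7, a 13-fold gap between the ratios of the knockdown lines. It was -2.64 ± 0.22 (SE) for Epcam, and -1.70 ± 0.18 (SE) for Cdh1. For each gene the 3 Sir2KD1 arrays lay below the 4 Sir2KD2 arrays, and all 3 calls held on leaving out any 1 of the 14 arrays. With the knockdown arrays fitted alone none of the 3 was called, where 1 probe of all was. The 2 genes called alike in both knockdown lines had smaller differences that were not called, -0.23 for Ocln (95% interval -0.997 to 0.53) and -0.36 for Krt7 (-0.77 to 0.06). Pkp2 at -1.58 ± 0.40 (SE), Ehf at 1.02 ± 0.31 (SE), Esrp1 at -1.52 ± 0.57 (SE) and Krt18 at 1.30 ± 0.50 (SE) were not called either. No member was called plus in either contrast by limma. In either direction, 6 of the 41 member probes in the overexpression contrast and 12 in the knockdown contrast had an unadjusted p below 0.05. The share of all probes at that level was not counted, so these counts have no comparison and are part of the description.

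**Figure D4:**
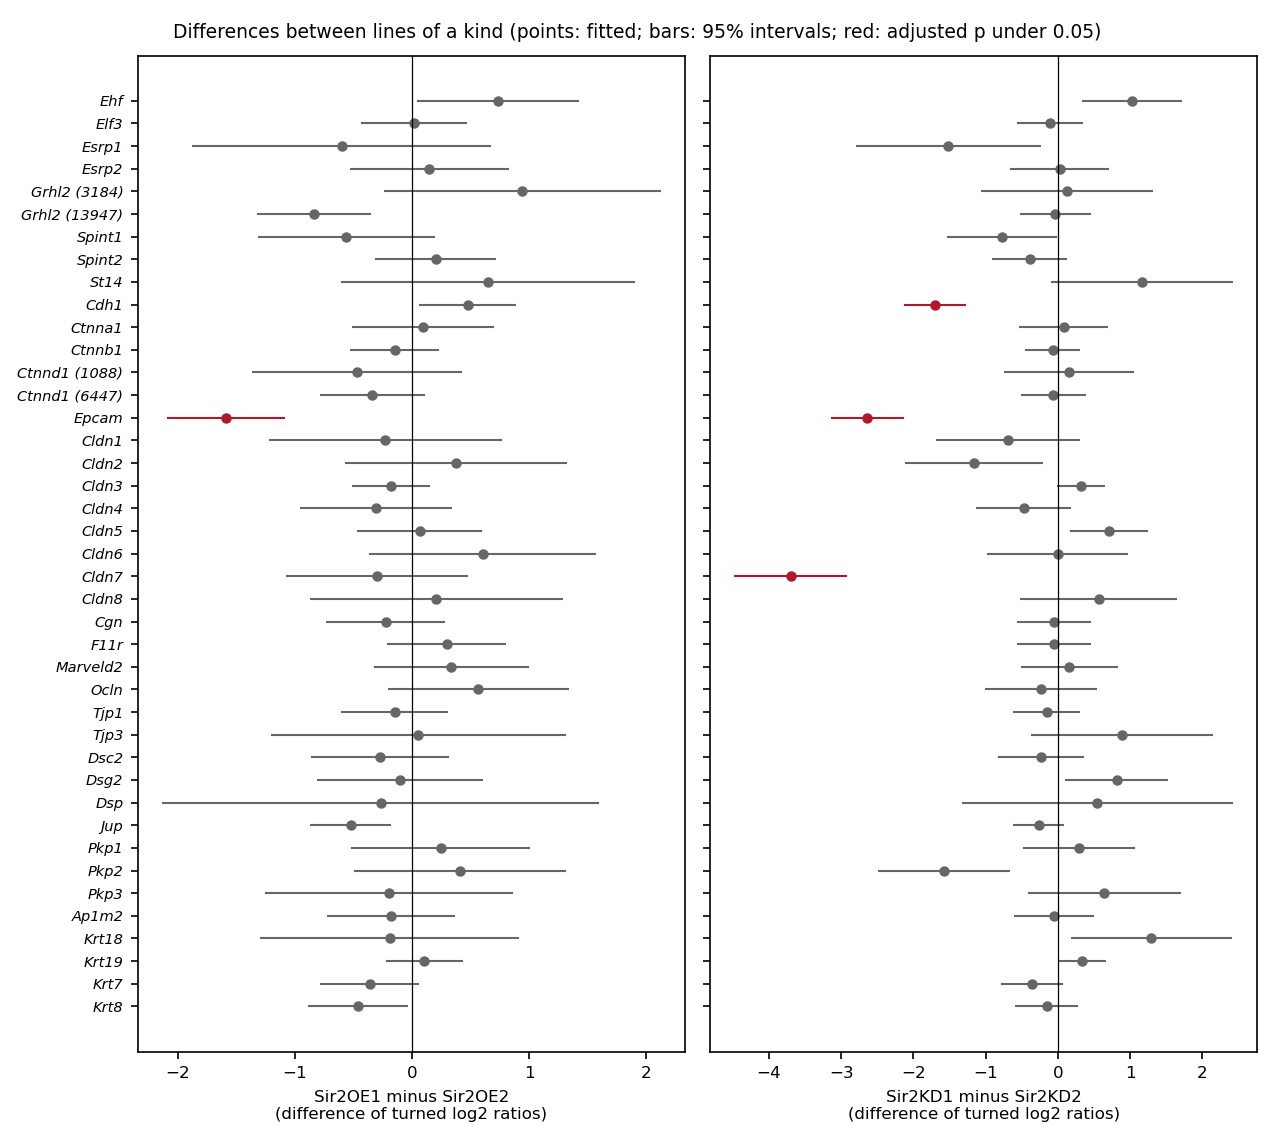
Differences between lines of a kind for all 41 member probes, Sir2OE1 minus Sir2OE2 and Sir2KD1 minus Sir2KD2, as fitted log2 values (points) with unadjusted 95% intervals (bars) and calls in red. Epcam is called in both contrasts, at -1.59 and -2.64, and Cldn7 at -3.70 and Cdh1 at -1.70 only in the knockdown contrast.

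Further epithelial genes outside the 39, 50 genes on 53 probes, were also read. In Sir2OE1, 2 of the 53 were called minus and none plus, and in Sir2OE2, 5 minus and 2 plus. Both overexpressing lines called the periplakin gene Ppl, a desmosomal plaque protein, at -1.30 ± 0.18 in Sir2OE1 (SE, n = 3) and -1.10 ± 0.15 in Sir2OE2 (SE, n = 4). They also both called Prom1, an apical membrane protein, at -0.86 ± 0.12 (SE, n = 3) and -1.20 ± 0.11 (SE, n = 4). In Sir2KD1, 2 were called minus and 1 plus, and in Sir2KD2, 2 plus and none minus. Cldn11, a claudin of myelin and testis, was called plus in both, at 1.64 ± 0.17 in Sir2KD1 (SE, n = 3) and 1.29 ± 0.14 in Sir2KD2 (SE, n = 4), and also in Sir2OE2, at 0.85 ± 0.14 (SE, n = 4). The medians of the 53 probes, -0.09, -0.06, -0.05 and -0.05 in Sir2OE1, Sir2OE2, Sir2KD1 and Sir2KD2, lay within 0.1 of those of all probes. On either side 2, 7, 3 and 2 of the 53 were called in the same order, where 1.06%, 2.81%, 3.59% and 1.34% of all probes were.

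Epithelial repressors and mesenchymal genes, among them Zeb1, Zeb2, Snai1, Snai2, Vim and Cdh2, gave no call. By limma 0 of their 34 probes (29 genes) passed in any line, with 3, 1, 4 and 5 probes at an unadjusted p below 0.05 in Sir2OE1, Sir2OE2, Sir2KD1 and Sir2KD2. Their medians were 0.06, 0.07, 0.11 and 0.09 in the same order, while single probes ran from -0.93 in Sir2KD1 to 1.07 in Sir2KD2. Of all probes, 1.06%, 2.81%, 3.59% and 1.34% were called on either side in these lines. At such shares few calls would fall among 34 probes, so their absence says little. Of 18 other cadherin and adhesion genes (23 probes), Bcam, a laminin-binding adhesion molecule, was the 1 called, at -0.77 ± 0.13 in Sir2OE1 (SE, n = 3) and -1.16 ± 0.11 in Sir2OE2 (SE, n = 4), and limma called 0 in the knockdown lines, with 6 probes at an unadjusted p below 0.05 in Sir2KD1 and 3 in Sir2KD2.

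Markers of other cell types and of beta cells were read in the same way. Of all probes, 1.06%, 2.81%, 3.59% and 1.34% were called on either side in Sir2OE1, Sir2OE2, Sir2KD1 and Sir2KD2. Of 16 exocrine and duct genes, the acinar transcription factor gene Rbpjl was called plus in both overexpressing lines, at 0.95 ± 0.12 in Sir2OE1 (SE, n = 3) and 0.78 ± 0.10 in Sir2OE2 (SE, n = 4), and Sir2KD1 had 1 call on each side. The medians of those 16 probes ran from -0.14 in Sir2KD2 to 0.13 in Sir2OE1. Of 8 immune genes on 9 probes, 1 was called plus in Sir2KD1 and none in another line, where 0, 2 and 1 probes in Sir2OE1, Sir2OE2 and Sir2KD2 had an unadjusted p below 0.05 by limma. Of 11 beta-cell genes on 12 probes, 2, 3, 4 and 3 probes were called in Sir2OE1, Sir2OE2, Sir2KD1 and Sir2KD2, and 3, 9, 8 and 6 had an unadjusted p below 0.05. The glucose transporter gene Slc2a2 was called minus in all 4 lines, from -2.08 ± 0.16 in Sir2KD1 (SE, n = 3) to -0.89 ± 0.13 in Sir2KD2 (SE, n = 4), and differed between those lines by -1.18 ± 0.21 (SE). The prohormone convertase gene Pcsk1 was called plus in both overexpressing lines at 0.78 and in Sir2KD2 at 0.76, and the beta-cell peptide gene Ucn3 in both knockdown lines, at 2.86 in Sir2KD1 and 2.62 in Sir2KD2. Sir2OE1 minus Sir2OE2 was -1.27 ± 0.21 for Ucn3 (SE). The transcription factor gene Neurod1 was called minus in Sir2OE2 at -0.50 and in Sir2KD1 at -0.47, and Pdx1 in Sir2KD1 at -0.77. Whether these markers have a part in the members' values was not tested.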

How the data were processed

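RNA of 4 MIN6-derived lines was compared with control RNA on 14 two-colour arrays. The deposited values are log2 ratios of the channels, while the software, background correction, normalization and direction behind them are not stated in the labels used. The deposited values summed to 0 per probe over 6 of 7 arrays of each kind (largest absolute sum 5.6e-08). With the centring removed, 100% of complete probes gave percent ratios that are whole numbers (relative tolerance 1e-05, smallest whole numbers). Opposite-channel arrays of a line had a mean r of -0.28 as deposited (12 pairs) and 0.18 with the centring undone, but centring over arrays balanced by channel itself lowers the first, so neither settles the direction. The sign was turned on arrays with the line in channel 1 as an assumption.

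Members were probes with a single platform gene symbol, updated through Entrez identifiers. The members and all lists were chosen with earlier results of these data known. Every member is named, with array values where called, and of the further lists genes called alike in both lines of a kind or in a line difference are named, with 2 beta-cell genes (Neurod1 and Pdx1) named after their values were seen. limma 3.58.1 (R 4.3.3, lmFit and eBayes) fitted the turned log2 values with a coefficient per line and a dye term per kind over 23230 probes measured on 2 or more arrays per line, with Benjamini-Hochberg adjustment at 0.05, and the code was tested on simulated data. The dye term takes up whatever constant the centring removed. Alternatives were other dye terms, separate fits, unturned ratios, probe filters, a robust spread, the slide number as a block and each array left out. No intensities were used, so signal over background cannot be given, and precision is limited by how many arrays there were.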

Additional observations from a re-analysis of the deposited data

Results flagged for a closer look

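Among the line differences of the members, 4 were called by limma over all probes, given as a description since they subtract values known when the genes were listed. Epcam differed by -1.5867 between Sir2OE1 and Sir2OE2, with all 7 arrays of both lines on the minus side. Between Sir2KD1 and Sir2KD2, Epcam differed by -2.6367 and Cldn7 by -3.7014, with the fitted values of the lines on opposite sides of 0, and Cdh1 by -1.7017.

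In Sir2OE2 and in Sir2KD2, the lines with 4 arrays, each of the 41 member probes was examined for an array far from the rest. Dixon's criterion at the 95% level was used, and 2 were found over both lines. Chance alone would mark about 1 in 20 groups, a group being 1 probe in 1 line, so these are no more than chance would mark. Sir2OE2 slide 4 read -1.6704 for Esrp2, with the other 3 slides between -1.15 and -1.07. Sir2KD2 slide 3 read 0.4738 for Ctnna1, with the other 3 between -0.10 and -0.02.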

How the results depend on the processing

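A single dye term gave 406, 1315 and 541 called probes in Sir2OE1, Sir2KD1 and Sir2KD2, against 247, 833 and 312, and 166 and 322 in the line differences of the overexpression and knockdown kinds, against 75 and 160. No dye term gave 628, 1190, 1867 and 810 in Sir2OE1, Sir2OE2 (653 otherwise), Sir2KD1 and Sir2KD2, 282 and 576 in the differences, and 8 and 5 member probes in Sir2KD1 and Sir2KD2, against 5 and 3. Separate fits of each kind gave 104, 219 and 65 in Sir2OE1, Sir2KD1 and Sir2KD2, 23 and 1 in the differences, and 3 and 0 member probes in Sir2KD1 and the knockdown difference. Of 29 called member values 10 were then not called: Ap1m2, Cldn3 and Krt19 in Sir2OE1, Cldn3 in Sir2OE2, Cldn3 and Ocln in Sir2KD1, Ocln in Sir2KD2, and Epcam, Cldn7 and Cdh1 in the knockdown difference. Such a fit has fewer arrays. Without the turn, with the centring undone, calls were 2913, 333 and 1403 in Sir2OE1, Sir2KD1 and Sir2KD2, 0 and 89 in the differences (0 member probes in each), and 2 member probes in Sir2OE2 and in Sir2KD1. Of 29 called member values, 3 then kept side and call, 13 lost the call and 13 changed side: in Sir2OE1 Cldn7 at 0.043 and Krt19 at 0.11; in Sir2OE2 Cdh1 at 0.43, Cldn7 at 0.031, Krt19 at 0.047 and Spint1 at 0.040; in Sir2KD1 Cdh1 at 0.30 and Ocln at 0.019; in Sir2KD2 Cldn7 at -0.29 and Ocln at 0.24; in the knockdown difference Cdh1 at 0.27, Epcam at 0.032 and Cldn7 at 0.35. Dsp in Sir2KD1 was called at 2.11, against -2.27 when called without Sir2KD1 slide 1. Those values carry the unknown factor of the percents. The dye term of each kind was kept there, and it takes up what changes sign with the channel in both lines. The lost calls and changes of side can thus follow from the design alone and are no check of the turn. The slide number as a replicate block left 0, 4, 153 and 6 called probes in Sir2OE1, Sir2OE2, Sir2KD1 and Sir2KD2, 10 and 37 in the differences, and 0, 0, 2 and 0 member probes, with 0 in the overexpression difference. Of 29 called member values 24 then lost the call. The slide number goes with the channel of the line on all arrays but Sir2KD1 slide 2. The block, dye and line terms are thus told apart only through that array. The lost calls can follow from this design alone and are no check of pairing. Same-numbered slides had a mean r of -0.07 over 19 pairs, taken on residuals of the fit. Within a kind the shared dye term makes residuals of arrays with the line in the same channel tend to opposite signs. The check could thus hardly show pairing there, and whether the numbers pair slides is not settled. The main fit did not take them to do so. Leaving out single arrays gave 47 to 222, 317 to 675, 523 to 835 and 149 to 325 called probes in the 4 lines, and 18 to 69 and 86 to 248 in the differences. Member probes called ran from 3 to 8, 9 to 11, 3 to 6 and 2 to 5, and 0 to 1 in the overexpression difference. All 29 called member values kept side and call with a single dye term, no dye term, complete probes, a robust spread and no probes of a fixed ratio.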
